A study of Mus musculus with 8 samples.

Results

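Trimethylation of lysine 27 on histone H3 (H3K27me3) is written by Polycomb repressive complex 2 and marks genes and regions held in a silent state. Part of the mark can pass through cell division, so a region silenced in a founder cell may still carry it in its descendants. In the brain, Polycomb silencing is known for holding developmental programmes in check while neural and glial fates are set. The regions described here are those at which H3K27me3 peaks were found both in 1 of the 2 cultures of tumorigenic astrocytes and in every tumour-derived culture, hereafter shared regions. They were chosen from the peak calls themselves. Peaks of all 5 deposited lists were pooled and merged where they overlapped or touched, and a merged region was taken when it held a peak of AstroEGFR 1, PT 1, PT 3 and PT 4, held none of AstroEGFR 3 and was narrower than 10000 bp. Of 99646 merged regions, 5346 met the rule (5.36%), or 5.41% of the 98788 regions below that width.

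H3K27me3 was profiled by chromatin immunoprecipitation and sequencing in 2 stages of gliomagenesis, to ask whether the mark is redistributed between them. AstroEGFR libraries 1 and 3 came from C57BL/6 cortical astrocytes of day P5 pups with loss of Ink4a/Arf (p16/p19) and retroviral expression of human EGFRvIII, a constitutively active form of the epidermal growth factor receptor. PT libraries 1, 3 and 4 came from glioma propagating cells, cultured from the tumours that C57BL/6 cells of this kind had formed after transplantation into CD1 Nude mice. All cultures were below passage 10. The p16/p19 loss was common to both stages, and the study describes transplantation of astrocytes that also carried the EGFR vector. Astrocytes were grown in serum and PT cells without serum on laminin with EGF and FGF-2, so stage and culture medium cannot be told apart. The labels do not state from which astrocyte batch a given PT line grew, and the shared regions are thus regions with peaks in 1 of the 2 AstroEGFR libraries and in the 3 PT libraries, not regions followed along a lineage.

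The lists were unequal. PT 4 had 66279 peaks and PT 1 had 64504, whereas PT 3 had 40090, AstroEGFR 1 34021 and AstroEGFR 3 only 3722. The read depth behind them is unknown. A region without a peak may thus still carry the mark below the cutoff of the caller, and the absence of AstroEGFR 3 from every shared region comes from the shortest list. AstroEGFR 1, PT 1 and PT 4 listed 179 to 236 peaks on unplaced sequences. There were 0 such peaks in AstroEGFR 3 and in PT 3, so the lists also fall into 2 sets that do not follow stage. Positions are those of mouse build mm9, which the submitters' processing notes name. A genome and gene annotation of that build were not used here, so regions are given by position, with no gene named and no sequence printed.

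The shared regions took up a large part of the AstroEGFR 1 list and a smaller part of the longest PT lists. They held 7965 peaks of AstroEGFR 1, or 23.4% of that list, and 8246 peaks of PT 3 (20.6%). The corresponding numbers were 8468 peaks (13.1%) in PT 1 and 8913 peaks (13.4%) in PT 4. By covered length the 4 lists came closer together, with 25.8% of the peak length of AstroEGFR 1 in shared regions, 21.7% of that of PT 3, 19.5% of that of PT 1 and 19.1% of that of PT 4. Of the regions below 10000 bp with a peak of all 3 PT lists, 52.5% were shared regions, and 59% of those that also lacked AstroEGFR 3. Of those with a peak of AstroEGFR 1 the figure was 20.7%. These shares follow from the rule and the lengths of the lists and were not tested.

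Shared regions had a median width of 3409.5 bp, with quartiles of 2273 and 5189.75 bp, and together spanned 20.9 Mb. The widths ran from 753 to 9993 bp. The 3 widest measured 9975, 9986 and 9993 bp, and the 3 regions of the same lists that the width limit just left out measured 10000, 10028 and 10037 bp. In all, 374 such regions lay at or above the limit.

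Coverage by peaks differed more among the PT lists than between their mean and AstroEGFR 1. Peaks covered on average 78.7% of a shared region in PT 1, 74.4% in PT 4 and 43.2% in PT 3, which gives 65.4% ± 19.4 (SD, n = 3) for PT. AstroEGFR 1 peaks covered 63.4%. The difference of 2.01 percentage points was smaller than the spread between PT lists. With 1 AstroEGFR list against 3 PT lists an exact permutation test could not give a p below 0.25, and the measure comes from the peak calls used by the rule, so none was run. Within the set of lists that hold peaks on unplaced sequences, AstroEGFR 1 stood 15.3 points below PT 1 and 11 points below PT 4. In base pairs, the median per region was 1897.5 in AstroEGFR 1 against 2704 in PT 1, 2532 in PT 4 and 1186.5 in PT 3. PT 3 covered the fewest base pairs of the 4 lists in 63.1% of the regions and AstroEGFR 1 in 18.9%. In 59.1% of the regions the length covered by AstroEGFR 1 lay inside the range of the 3 PT lists.

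The rank of the peaks within their own list followed the same order. Scores cannot be compared between lists, so each region was given, in each library, the percentile of its best peak among all peaks of that list. The median percentile of AstroEGFR 1 was 72.6. For PT 1, PT 3 and PT 4 it was 86.6, 66.0 and 86.0, or 79.5 ± 11.7 (SD, n = 3) in PT. AstroEGFR 1 thus stood above PT 3 and below PT 1 and PT 4. The latter are also the longest lists, and the part of list length in these percentiles was not tested. Its percentile lay inside the PT range in 2629 regions (49.2%), below all 3 PT lists in 1842 (34.5%) and above all 3 in 875 (16.4%). PT 3 gave the lowest of the 4 percentiles in 2433 regions (45.5%). A best peak above percentile 90 was found in 40.0% of the regions in PT 1 and 39.6% in PT 4, against 19.98% in AstroEGFR 1 and 18.1% in PT 3. Above percentile 90 in all 4 lists at once were 256 regions (4.79%), whereas 63 (1.18%) were at or below percentile 50 in all 4.

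**Figure D1:**
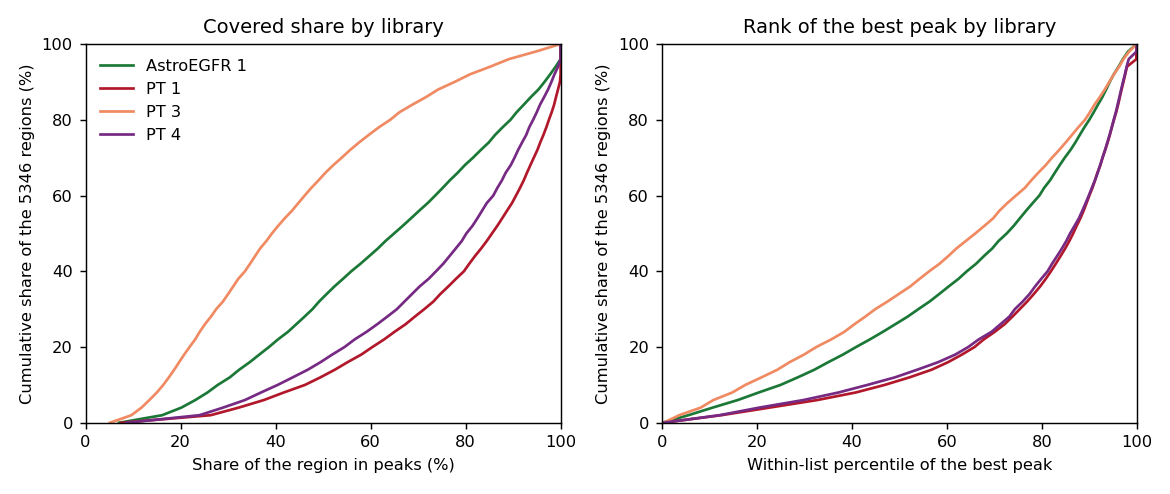
Cumulative distributions over the 5346 shared regions of the share of each region that lies in peaks (left, in %) and of the within-list percentile of the best peak (right), 1 line per library. At the median PT 3 lies to the left, PT 1 and PT 4 to the right and AstroEGFR 1 between them, while the lines of PT 3 and AstroEGFR 1 meet near the upper end of the right panel, with medians from 66.0 (PT 3) to 86.6 (PT 1) in the right panel.

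Wide and narrow shared regions differed in rank in each of the 4 lists. Among the 1339 narrowest regions, of up to 2273 bp, the median percentile was 52.4 both in AstroEGFR 1 and in PT 3, 66.7 in PT 1 and 66.9 in PT 4. Among the 1337 widest, from 5190 bp, it was 86.9 and 80.2 in the former pair and 96.0 and 95.7 in the latter. The covered share moved in opposite directions, since from the narrowest to the widest of 4 groups by width it rose from 72.2% to 86.8% in PT 1 and from 68.8% to 82.6% in PT 4 but went from 70.5% to 60.5% in AstroEGFR 1 and from 52.6% to 37.7% in PT 3. The width of a merged region is itself set by its peaks. Those of PT 1 and PT 4 covered the most base pairs in 42.4% and 28.5% of the regions. The part of the merging in these directions was not tested. A single peak made up the AstroEGFR 1 signal in 97.2% of the narrowest and 28.7% of the widest regions.

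Merging can join peaks that do not themselves overlap, and the peaks were therefore compared directly. In 4494 regions (84.1%) at least 1 bp lay in a peak of all 4 lists. That common part had a median length of 672 bp (quartiles 479 and 1229.75 bp) and a median of 23.0% of the region's width, and it exceeded 50% of the width in 473 regions (8.85%). In the other 852 regions (15.9%) no base was common to the 4 lists. AstroEGFR 1 and PT 1 peaks overlapped in 98.5% of the shared regions, AstroEGFR 1 and PT 4 peaks in 98.3%, and AstroEGFR 1 and PT 3 peaks in 91.7%. Peaks of PT 1 and PT 4 overlapped in 98.8%, those of PT 1 and PT 3 in 96.8% and those of PT 3 and PT 4 in 96.3%. Each pair with PT 3 thus overlapped less often than each pair without it.

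Inside the shared regions the Jaccard index, the base pairs in both lists divided by those in either, was 0.732 for PT 1 with PT 4. It was 0.561 for AstroEGFR 1 with PT 1 and 0.553 for AstroEGFR 1 with PT 4. PT 3 had an index of 0.375 with PT 1, 0.376 with PT 4 and 0.353 with AstroEGFR 1. With PT 1 and with PT 4, the lists of its own set, AstroEGFR 1 thus had a higher index than PT 3 had. The index cannot be high where 1 list covers much less than the other. Within shared regions PT 3 peaks covered 8.49 Mb and AstroEGFR 1 peaks 12.9 Mb, both less than the peaks of PT 1 or PT 4. The part of this covered length in the index was not tested, so the values do not show which list was more similar. The percentiles varied together in the same order as the index over the 5346 regions, which share libraries and differ in width. Spearman's rho was 0.77 for PT 1 with PT 4, 0.41 for AstroEGFR 1 with PT 1, 0.39 for AstroEGFR 1 with PT 4 and 0.21 for AstroEGFR 1 with PT 3. The values of PT 3 with PT 1 and PT 4 were 0.25 and 0.25. The number of peaks in a list and the set it belongs to move with these values, and their part was not tested.

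Around the centre of the longest common stretch, peaks extended to different distances. At 1 kb from it, the mean over both sides of the share of regions with a peak was 62.7% for PT 1, 58.3% for PT 4, 45.0% for AstroEGFR 1 and 25.8% for PT 3. At 5 kb it was 39.0%, 36.7%, 26.98% and 16.9%, respectively, where neighbouring regions are also counted. AstroEGFR 3 had a peak at 0.0779% of the positions at 1 kb and at 0.957% of those at 5 kb. The rule bars its peaks from the region itself, so its low values near the centre follow from the rule. The order of the 4 lists was that of the total length in peaks, which was 87.9 Mb in PT 1, 84.6 Mb in PT 4, 50.1 Mb in AstroEGFR 1 and 39.2 Mb in PT 3, and the part of that length was not tested.

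**Figure D2:**
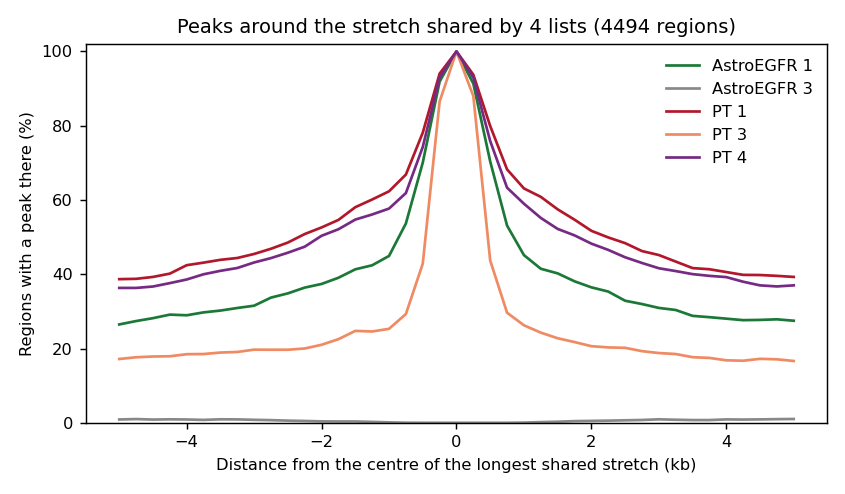
Share of the 4494 shared regions with a common stretch that have a peak (in %) at each distance from the centre of that stretch (in kb), by library. The value at the centre is 100% for 4 lists by construction, and AstroEGFR 3 has no peak inside the regions by the rule. PT 1 and PT 4 stay above AstroEGFR 1 on both sides, PT 3 falls to 25.8% at 1 kb, and AstroEGFR 3 is at 0.0779% at 1 kb and 0.957% at 5 kb (means of both sides).

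The 10 shared regions with the highest rank, taken by their lowest percentile over the 4 lists, stood at or above percentile 98.3 in each list. Their best peaks reached a score of 3100, at which many peaks of a list tie and which few exceed, in PT 1 and in PT 4 in each of the 10. The first lay on chromosome 10 from 59499402 to 59509394. AstroEGFR 1 peaks covered 9489 bp of it, and those of PT 1, PT 3 and PT 4 covered 9993, 9715 and 9662 bp, with 9468 bp common to all 4. The score was 3100 in each of these lists, and the nearest AstroEGFR 3 peak was 63617 bp away. Peaks of these 4 lists thus covered nearly the whole region, while their tied scores do not rank it between lists.

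The second region followed after 46 bp, on chromosome 10 from 59509441 to 59517804, and again had the score 3100 in AstroEGFR 1, PT 1, PT 3 and PT 4. AstroEGFR 1 covered 8025 bp, PT 1 8050 bp, PT 3 7654 bp and PT 4 7740 bp of its 8364 bp. Joined across that gap, both would have exceeded the width limit. The third, also on chromosome 10 (66992048 to 66999186), had 6500 bp in peaks of AstroEGFR 1 and 6685, 6058 and 6621 bp in those of PT 1, PT 3 and PT 4. Its score was 2616.85 in AstroEGFR 1 and 1549.19 in PT 3. The fourth, on chromosome 8 from 87438293 to 87445813, had 7419, 7110, 6424 and 6720 bp in AstroEGFR 1, PT 1, PT 3 and PT 4, with 12916 bp to the nearest AstroEGFR 3 peak.

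Of the remaining 6, 2 lay on chromosome 10 and 1 each on chromosomes 3, 7, 9 and 13, so that 5 of the 10 were on chromosome 10. The seventh, on chromosome 13 from 48751085 to 48758270, was 1245 bp from an AstroEGFR 3 peak, and the tenth, on chromosome 7 from 26095838 to 26101536, was 2802 bp from one. Both stood beside marked sequence in AstroEGFR 3 although they held none of its peaks. The eighth, on chromosome 3 from 93242936 to 93250706, had its nearest AstroEGFR 3 peak 916379 bp away. It was covered to 97.5% by AstroEGFR 1, 90.2% by PT 1, 61.8% by PT 3 and 93.1% by PT 4.

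At other shared regions the rank differed widely between AstroEGFR 1 and the 3 PT lists. The largest lead of AstroEGFR 1 was on chromosome 1 from 136537713 to 136539794, where its percentile was 87.4, against 15.0 in PT 1, 3.67 in PT 3 and 12.5 in PT 4. Its peak covered 1830 bp of the region and the PT peaks 611, 598 and 678 bp. Of the 5 regions with the largest lead, this was the only one with a base common to all 4 lists (346 bp), and in each of the 5 PT 3 held a single peak of 593 to 631 bp. In the other 4 the peaks of the 4 lists had been joined by merging without a common base.

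The largest lead of PT was on chromosome 6 from 89198916 to 89203333. The percentile was 0.370 in AstroEGFR 1 and 92.2, 95.0 and 93.3 in PT 1, PT 3 and PT 4. The AstroEGFR 1 peak had a score of 70.22, close to the lowest of its list (70.06), and covered 632 bp, whereas PT peaks covered 3635, 3118 and 3989 bp. In each of the 5 regions with the largest lead of PT, the AstroEGFR 1 score lay between 70.12 and 70.89 and the base pairs common to the 4 lists numbered 143 to 676. By the rule these regions are shared, and in AstroEGFR 1 they only just passed the threshold of the list. Both groups of 5 were picked for their difference and are given as examples.

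**Figure D3:**
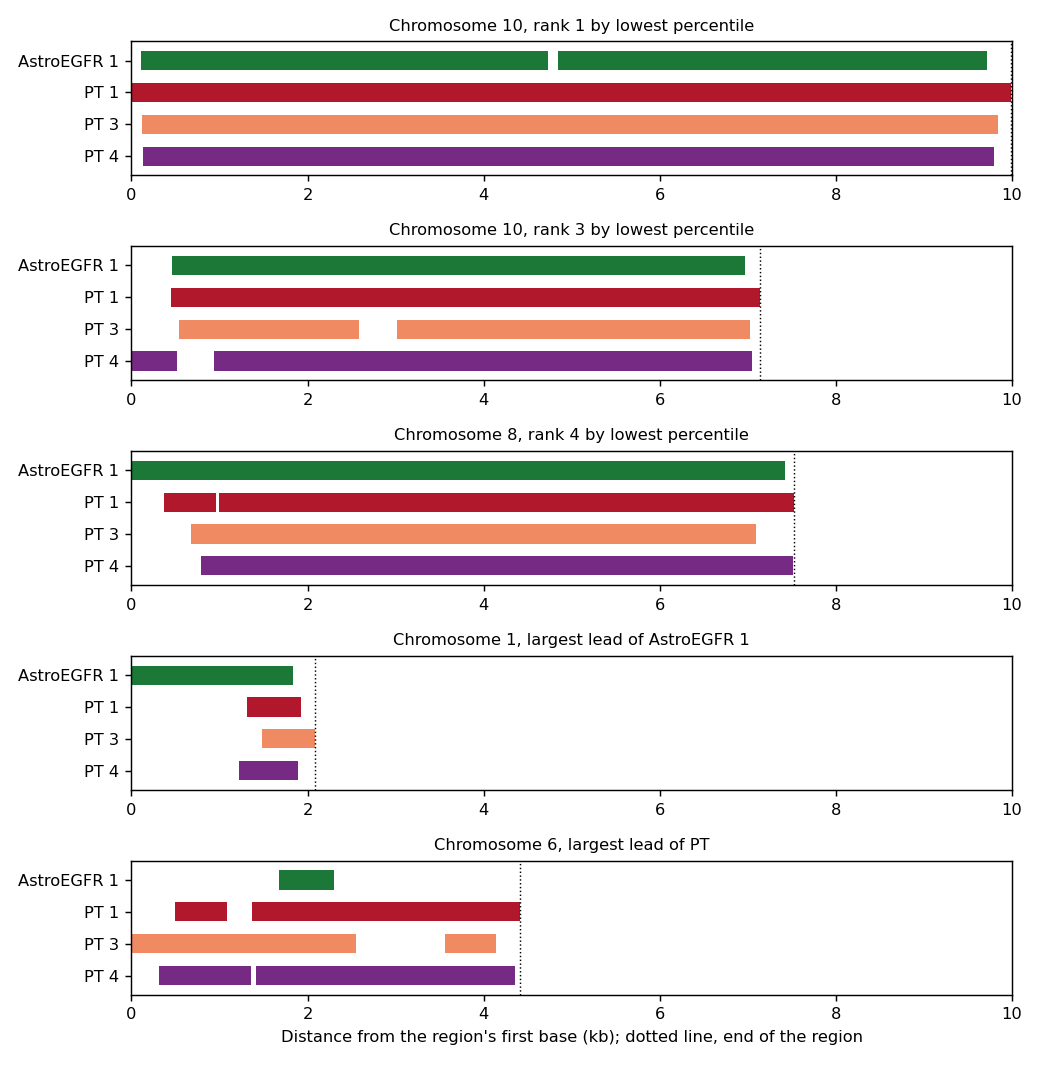
Peaks of AstroEGFR 1, PT 1, PT 3 and PT 4 (bars) in 5 shared regions, against the distance from the region's first base in kb, with a dotted line at the region's end. In the regions ranked 1, 3 and 4 the bars of the 4 lists run side by side over most of the width, whereas the largest lead of AstroEGFR 1 shows a bar of 1830 bp beside PT bars of 598 to 678 bp, and the largest lead of PT a bar of 632 bp in AstroEGFR 1 beside PT bars covering 3118 to 3989 bp in all.

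A region marked in AstroEGFR 1 was the more often a shared region the higher it ranked there. Regions below 10000 bp with an AstroEGFR 1 peak were divided by the percentile of the best peak. The rule did not use this rank, but it used the same peak calls, so the shares are a description. The best peak was also taken over all AstroEGFR 1 peaks of a region, and wider shared regions more often held several. Of the 2724 regions at or below percentile 10, 199 (7.31%) were shared regions. This share was 14.8% between percentiles 40 and 50, 29.8% between 70 and 80, and 51.8% of the 2060 regions above percentile 90, against 20.7% over all bands. Over the same range, regions with no PT peak fell from 47.1% to 2.09%, and regions marked in all 5 lists rose from 0.734% to 16.2%. Those that AstroEGFR 1 shared with PT 1 and PT 4 alone made up 18.8% of the lowest band, a maximum of 38.0% between percentiles 70 and 80, and 23.9% of the highest band. The highest-ranked AstroEGFR 1 regions were thus nearly all marked in at least 1 PT list, and the majority in all 3.

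The same held from the PT side, with a different shape. In PT 1 the share of shared regions was 1.63% at or below percentile 10 and 43.3% above percentile 90, and in PT 4 it was 1.68% and 43.3%. In PT 3 it went from 9.34% to 35.6%. The background over all regions of each list was 9.98% in PT 1, 17.2% in PT 3 and 9.92% in PT 4. Higher-ranked regions were also wider, and the part of width in these shares was not tested.

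**Figure D4:**
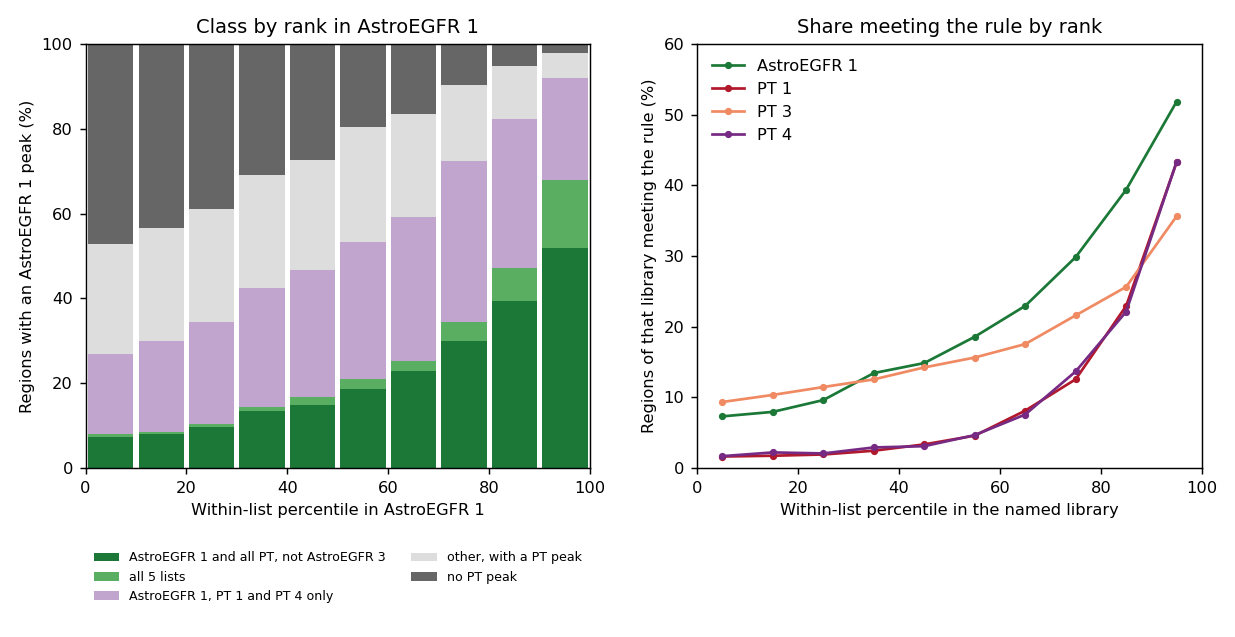
Left, class of the regions with an AstroEGFR 1 peak (in %, stacked) by the within-list percentile of that peak in bands of 10; right, share of the regions of each library (in %) that are shared regions by the percentile in that library. The share rises from 7.31% to 51.8% in AstroEGFR 1 and from 1.63% to 43.3% in PT 1, while the regions without a PT peak shrink from 47.1% to 2.09%.

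Compared with the 3 most similar classes below 10000 bp, shared regions stood between the 905 regions marked in all 5 lists and those marked in 3. The median width was 5228 bp in the class of all 5 lists and 1917 bp in the class of 7369 that held AstroEGFR 1, PT 1 and PT 4 peaks alone. It was 1843.5 bp in the 3718 regions marked only in the 3 PT lists. Merging peaks of more lists can only widen a region. In AstroEGFR 1 the median percentile was 84.3 in the class of all 5 lists, 72.6 in shared regions and 54.6 in those lacking PT 3. In PT 1 it was 93.9, 86.6 and 71.6, and 67.6 in the regions of PT only. In PT 3 it was 89.9 in the class of all 5 lists, 66.0 in shared regions and 52.8 in those of PT only. In each list with values for these classes, shared regions ranked below the regions that AstroEGFR 3 also marked and above those that lacked 1 further list. The classes are cut from the same peak calls and the differences were not tested.

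AstroEGFR 3 had no peak in any shared region, but its peaks lay closer to shared regions, by median, than to the regions compared. The nearest AstroEGFR 3 peak was at a median distance of 80.6 kb. It was no farther than 1 kb for 103 shared regions (1.93%), 5 kb for 559 (10.5%) and 100 kb for 2864 (53.6%). Over all 96188 regions below 10000 bp without an AstroEGFR 3 peak these shares were 0.982%, 5.01% and 36.7%, and the median distance was 210 kb. The class of AstroEGFR 1, PT 1 and PT 4 alone (median 145 kb) and that of PT only (138 kb) were also farther away. Shared regions were likewise closer to domains of 10000 bp or more, with 8.79% within 5 kb of one against 2.41% of all regions without an AstroEGFR 3 peak. Shared regions were also the wider ones, and the part of width in these distances was not tested.

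Shared regions also lay close to each other. The median gap between neighbours was 31.4 kb. It was 27.15 kb in the class of AstroEGFR 1, PT 1 and PT 4 only, 71.8 kb in that of PT only and 546 kb in that of all 5 lists. Of the gaps between shared regions, 15.0% were at most 1 kb, and whether such neighbours belong to a single domain was not tested. At most 10 kb were 34.2% of the gaps. The latter share was 35.3% in the class of AstroEGFR 1, PT 1 and PT 4 only, 24.4% in that of PT only and 10.8% in the smaller class of all 5 lists. When neighbours within 10 kb were joined, a limit chosen after seeing the data, 2884 regions (53.9%) fell into 1064 runs of at least 2 and 2462 stood alone. Runs of at least 5 numbered 85 and held 534 regions, and 29 of these runs were on chromosome 10, where shared regions were densest per Mb. The part of that density in the runs was not tested. The longest held 17 regions on chromosome 10 from 77494065 to 77617456, with 74.1% of its span in shared regions. Its regions had a median percentile of 89.9 in both AstroEGFR 1 and PT 3, 95.6 in PT 1 and 94.4 in PT 4. The next, with 13 regions, was also on chromosome 10 (75407704 to 75483643). The third, with 11 regions on chromosome 6 from 54623773 to 54696130, had medians of 40.9 in AstroEGFR 1 and 52.5 in PT 3 against 89.9 in PT 1 and 94.3 in PT 4. Runs could thus rank high in each list, or high in PT 1 and PT 4 and lower in the others.

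Chromosome 10 held more shared regions than any other chromosome. It carried 869 of them, or 16.3%, against 9.69% of all regions below 10000 bp and 4.87% of the span of chromosomes. Among the most similar classes it carried 12.1% of the regions of PT only, also above the share of all regions. It carried 8.39% of those of AstroEGFR 1, PT 1 and PT 4 only and 4.42% of those of all 5 lists. The span of a chromosome was taken up to the end of its last peak, in place of its length. The density of shared regions was 6.76 per Mb, and on the other autosomes it ran from 0.827 per Mb on chromosome 14 to 3.35 on chromosome 9. Per 100 merged regions, chromosome 10 had 9.07 shared regions and the other autosomes 3.03 to 6.64. The excess was not evenly spread among the comparisons. Among regions with a peak of AstroEGFR 1, PT 1 and PT 4 and none of AstroEGFR 3, 58.4% on chromosome 10 also had a PT 3 peak, above the 26.7% to 53.5% of the other autosomes and the 42% over all such regions. Among regions of all 3 PT lists without AstroEGFR 3, 65.9% on chromosome 10 had an AstroEGFR 1 peak, inside the range of the other autosomes (48.6% to 70.1%). The lists themselves differed there, since chromosome 10 held 14.9% of all PT 3 peaks, 11.7% of AstroEGFR 1 peaks, 9.29% of PT 1 peaks, 8.75% of PT 4 peaks and 2.93% of AstroEGFR 3 peaks. PT 3 and AstroEGFR 1 had the largest shares and AstroEGFR 3 the smallest.

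**Figure D5:**
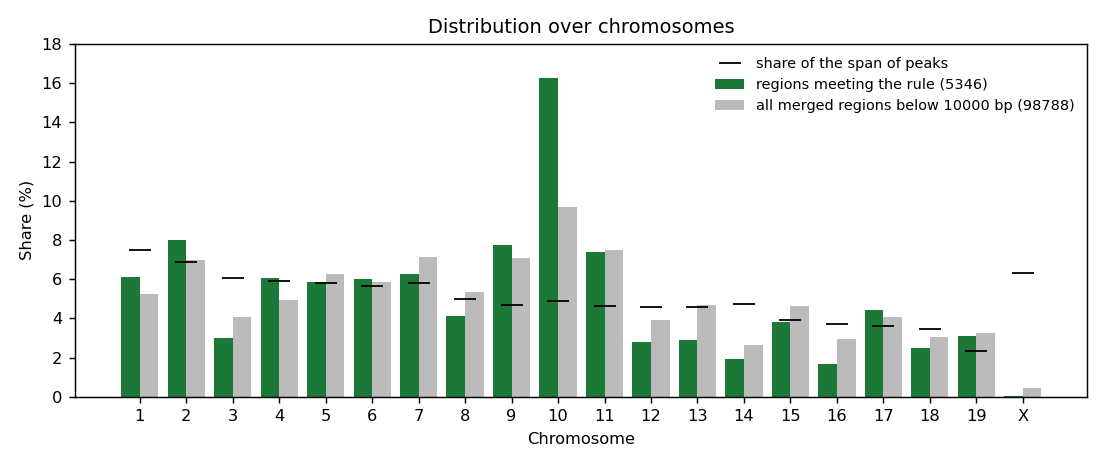
Share (in %) of the 5346 shared regions (green bars) and of all 98788 merged regions below 10000 bp (grey bars) on each chromosome, with dashes for the chromosome's share of the span, taken up to the last peak of each chromosome. Chromosome 10 stands out with 16.3% of the shared regions against 9.69% of all regions, and chromosome X holds 2 shared regions.

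Shared regions on chromosome 10 were as wide as elsewhere, with a median of 3372 bp against 3411 bp, but ranked differently. The median percentile was 80.4 on chromosome 10 and 70.9 on other chromosomes in AstroEGFR 1, and 79.2 and 63.0 in PT 3. In PT 1 it was 85.9 and 86.8, and in PT 4 80.5 and 86.9. The regions on chromosome 10 thus ranked higher in AstroEGFR 1 and PT 3 and lower in PT 4. Covered shares moved alike, from 62.1% elsewhere to 70.4% on chromosome 10 in AstroEGFR 1, from 41.4% to 52.7% in PT 3, and from 76.0% to 66.2% in PT 4. Over all peaks of a list the median percentile on chromosome 10 was 59.1 in PT 3, 56.5 in AstroEGFR 1, 53.2 in PT 1 and 51.02 in PT 4. Along the chromosome, 503 of the 869 regions (57.9%) began between 60 and 100 Mb, where 43.7% of the merged regions of the chromosome began. The interval was picked after seeing the counts. AstroEGFR 3 peaks were farther away on chromosome 10, at a median of 238 kb against 64.4 kb elsewhere.

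Chromosome X held 2 shared regions, and it made up 6.31% of the span of chromosomes, taken up to the last peak of each, but held 0.430% of the merged regions. On the first, from 68913293 to 68918587, AstroEGFR 1 peaks covered 1012 bp and those of PT 1, PT 3 and PT 4 covered 4876, 878 and 5295 bp, and no base was common to the 4 lists. On the second, from 138155948 to 138159324, they covered 2026, 2533, 2420 and 3159 bp in the same order, with 1742 bp in common. Chromosome Y held 0 shared regions among 29 merged regions.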

How the data were processed

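H3K27me3 peak lists of 5 libraries were analysed (AstroEGFR 1 and 3, PT 1, 3 and 4). The 3 input libraries were not analysed here. The submitters' processing notes name Bowtie 0.12.9, MACS 1.4.1 and mm9. The deposited score of each peak is that of MACS, a scaled negative logarithm of the p-value, and it is not normalized between lists. The authors called peaks per library. Which input was used, the threshold and the read depth are not given in the sources used here. Library identity came from the labels.

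The analysis used Python 3.11.15 with pandas 2.3.3. Percentiles are the share of a list's peaks with a score at or below that of the peak. Merging was checked against bedtools 2.31.1, and all 6200 regions planted in simulated lists were put in their class (100%). Planted regions held no more than a single peak per list, around a common interval. Regions with several peaks of a list or without a common base were thus not represented among them. The regions and all lists of features were chosen with earlier results of these data known. Named regions were the 10 with the highest lowest percentile, the 5 with the largest lead of AstroEGFR 1 or of PT and those at the width limit. The 2 regions on chromosome X and the longest runs were named in addition, outside the planned choice. Planned counts at transcription start sites, gene lists and base composition were not run, since no annotation or genome of mm9 was used here. No test was run, because the rule used the same peak calls.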

Additional observations from a re-analysis of the deposited data

How the results depend on the processing

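Gene-based alternatives were not run. The number of shared regions, 5346, was 3535 with peaks of a score of at least 100, 2655 when peaks in the lower 50% of their list were dropped, and 3196 with peaks merged across gaps of up to 1000 bp. Leaving out each library in turn gave from 6150 to 12924 regions, since each omission relaxes the rule, with 12924 without PT 3 and 9381 without AstroEGFR 1. The share on chromosome 10, 16.3%, was 17.5% with a score of at least 100, 18.5% with the upper 50% by score, 17.4% with at least 25% of the region covered in each list and 14.2% with the wider merging gap, and 11.9% to 16.8% when each library was left out, lowest without PT 3, where all regions stood at 8.78%. It remained above the share of all regions under each alternative run. In the setting of at least 25% covered, an AstroEGFR 3 peak also counted only if AstroEGFR 3 covered at least 25% of the region. That setting thus relaxed the condition on AstroEGFR 3 while it tightened those on the other lists. The median percentile in AstroEGFR 1 was 84.6 with the upper 50% by score, by construction. Covered shares and PT percentiles moved by less than the SD between PT lists, which for covered shares was wide (19.4 points). The order of PT and AstroEGFR 1 in covered share nevertheless depended on the PT lists kept. Without PT 1 the covered share was 64.2% in PT and 70.4% in AstroEGFR 1, and without PT 4 it was 64.5% and 68.8%. Without PT 3 it was 76.8% in PT and 69.0% in AstroEGFR 1. With the wider merging gap the covered share fell from 65.4% to 49.6% in PT and from 63.4% to 45.8% in AstroEGFR 1. The share of regions with a base common to the lists required, 84.1%, was 62.8% with that gap and 96.1% without PT 3. Without AstroEGFR 3, 68.0% of the AstroEGFR 1 regions above percentile 90 were shared regions, and without PT 3 75.6%, against 51.8%. Both omissions relax the rule. The same share fell to 43.7% with the upper 50% by score and 44.7% with at least 25% of the region covered. It was 45.5% below a width of 5000 bp, 48.4% with the wider merging gap, 48.6% with a score of at least 100 and 49.6% with no limit on width. In the lowest band without PT 3 the share was 25.8%, against 7.31%. No paired analysis was possible because the result comes from no test and the rule excludes AstroEGFR 3, which leaves a single pair of equal number, AstroEGFR 1 with PT 1. Read depth is unknown and limits every statement on a missing peak.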
